A study of Homo sapiens with 5 samples.

Results

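Among 4101 MDA-MB-468 cells, 880 (21.5%) carried 20% or more of their counts on the 13 mitochondrially encoded genes, whose symbols start with MT-. These cells, called high-MT cells here, were chosen by that share alone, whatever their library. In each library they were set against the cells with a share under 10%, of which there were 2369. The remaining 852 cells lay between and served only to show how values graded. MDA-MB-468 is a line from a triple-negative breast cancer, and in this study it carried expressed lineage barcodes. The 5 libraries held untreated cells of D0 (replicates 1 and 2) and cells exposed for 3 (D3), 6 (D6) or 9 days (D9) to afatinib at 250 nM, which blocks the EGFR and ERBB2 kinases. The study's methods describe freezing of treated cells, and thawing of frozen samples before capture with a 3′ Chromium kit. They do not state whether the D0 cells were frozen as well. Each treated day was a single library, and the labels do not call the D0 replicates separate cultures, and the p-values cover no more than the variation among these 5 libraries.

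As background, the mitochondrial genome encodes subunits of the respiratory chain and the ATP synthase, and its transcripts are made and held inside the organelle. Nuclear transcripts leave the nucleus through pores and most are translated in the cytoplasm, on free ribosomes or on the endoplasmic reticulum. Some long noncoding RNAs, MALAT1 and NEAT1 among them, stay in the nucleus. A high mitochondrial share is commonly used in single-cell work as a mark of a damaged cell, and the study's authors had already removed cells whose share was out of line with their depth. The cells described here are those that remained, and the high-MT class is a range of a score and not a cell type.

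High-MT cells made up 9.41% of cells (45 of 478; exact binomial 95% interval 6.95% to 12.4%) in untreated D0 replicate 1 and 7.81% (83 of 1063; 6.27% to 9.59%) in replicate 2. At D3 they made up 48.0% (230 of 479; 43.5% to 52.6%), at D6 44.5% (419 of 942; 41.3% to 47.7%) and at D9 9.04% (103 of 1139; 7.44% to 10.9%). D3 and D6 stood far above the other 3 libraries, and D9 was within the range of the untreated intervals. The intervals cover counting error only, and with 1 library a day the share was not tested. Cells under 10% made up 79.3% and 80.9% of cells in untreated libraries, with 17.7% at D3, 19.96% at D6 and 75.2% at D9.

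**Figure D1:**
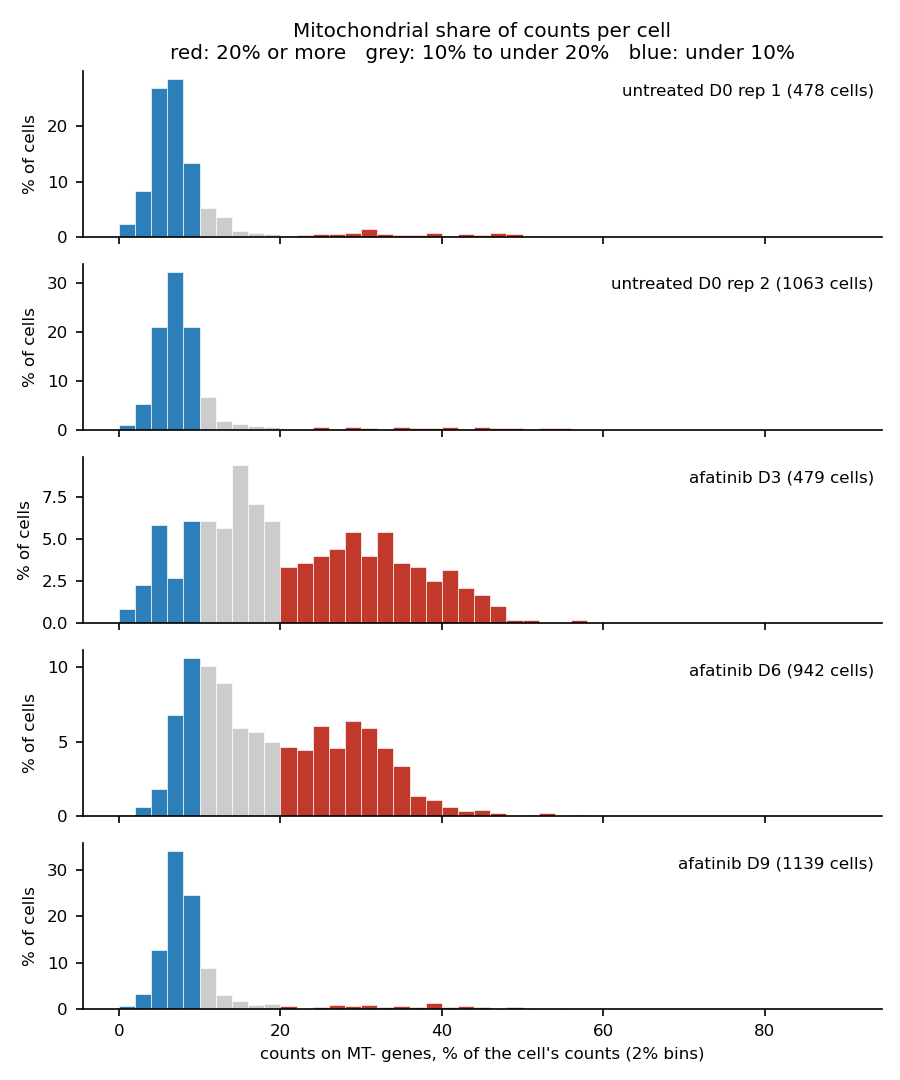
Share of cells (y axis, percent of the library's cells) in 2% bins of the mitochondrial share of counts (x axis, percent), 1 panel a library, with red bars for 20% or more, grey for 10% to under 20% and blue for under 10%. The untreated libraries and D9 pile up under 10%, and D3 and D6 spread over the whole range with 48.0% and 44.5% of their cells in red.

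The cut at 20% fell within a continuous range. The 55 cells from 19% to under 20% had a median of 10954 counts outside the MT- genes, and the 43 cells from 20% to under 21% had 7734. The median share in high-MT cells was 33.2% (D0 replicate 1), 39.1% (D0 replicate 2), 31.9% (D3), 28.7% (D6) and 35.8% (D9). In cells under 10% it was 6.099%, 6.95%, 5.99%, 8.11% and 7.34% in the same order.

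Depth moved with the class in every library. High-MT cells held a median of 7004, 3931, 11202, 6511 and 4648 non-mitochondrial UMIs (transcript molecules counted after removal of copies) in untreated D0 replicates 1 and 2, D3, D6 and D9. Cells under 10% held 46465, 25032, 44277, 22281 and 20665. The cells under 10% thus held 3.42 to 6.63 times as many, and 96.5% to 100% of the high-MT cells of a library lay below the lower quartile of its cells under 10%. Mitochondrial UMIs differed the other way and by less, with medians of 4052, 2593, 5515, 2726 and 2539 a high-MT cell, against 3124, 1782, 2572, 1969 and 1574 a cell under 10%. Both totals enter the share that chose the cells, so these values are a description and were not tested. Only 1 cell barcode was shared between libraries.

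The 13 MT- genes were raised together and not evenly. They chose the cells, and their values are given with no test. The mean UMIs per cell in high-MT cells were between 1.16 and 2.52 times those in cells under 10% for 12 of the 13 genes in all 5 libraries. MT-ND1, a core subunit of complex I, was at 1.02%, 1.28%, 1.48%, 1.49% and 1.63% of all counts in high-MT cells of untreated D0 replicates 1 and 2, D3, D6 and D9, against 0.161%, 0.179%, 0.256%, 0.344% and 0.256% in cells under 10%. MT-ND5, another complex I subunit, was at 0.432% to 0.611% in high-MT cells, against 0.0862% to 0.136% in cells under 10%. For both genes the 2 classes did not overlap over the libraries.

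MT-ND6 stood apart from the other 12. It is the only protein-coding gene on the light strand of the mitochondrial genome, and it encodes a membrane subunit of complex I. Its mean was 8.80, 6.96, 6.42, 2.52 and 1.36 UMIs per high-MT cell in untreated D0 replicates 1 and 2, D3, D6 and D9, against 3.08, 2.41, 1.81, 0.782 and 0.233 UMIs per cell under 10%. These are ratios of 2.86, 2.89, 3.54, 3.23 and 5.82, above that of every other MT- gene in the same library. As a share of mitochondrial counts alone it was 1.92 to 3.44 times higher in high-MT cells, while MT-CO1 and MT-CO2, which encode catalytic subunits of complex IV, were at 0.904 to 0.973 times their share in cells under 10%. MT-ND6 was a minor transcript in both classes, at 0.0488% to 0.244% of mitochondrial counts in high-MT cells and 0.0142% to 0.126% in cells under 10%.

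For every other gene, counts outside the MT- genes were summed per library and class and expressed as CPM, that is relative to the summed non-mitochondrial counts of the library and class. They were compared by edgeR's quasi-likelihood test with the library as a term, so that each high-MT sum was set against its own library. At a Benjamini-Hochberg adjusted p under 0.05, 3379 of 11718 genes (28.8%) were higher in high-MT cells and 4075 (34.8%) were lower, with a median log2 fold change of -0.05. Of the 7454 called genes, 5192 had a CPM ratio of the same sign in all 5 libraries. That sign was not matched to the sign of the call, and the share over all tested genes was not computed. For 3801 of the 7454 the classes did not overlap over the libraries, so the lack of overlap given below for single genes was common. The share over all tested genes was not computed for this either. All called differences are changes in the make-up of the RNA, since nearly every gene had fewer transcripts per high-MT cell.

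How the sums were scaled set the balance between the directions. The TMM factors of the test hold the bulk of genes level. With library sizes alone, a choice made after the data were seen, 6235 genes (53.2%) were higher and 1878 (16%) lower, and the median log2 fold change moved to 0.52. Directions are therefore given relative to the bulk of genes, and lists that turn with the scaling are named as such. Among 7506 genes with a mean of 20 CPM or more, 1978 (26.4%) were at least 1.5-fold higher in CPM in every library and 488 (6.5%) at least 1.5-fold lower. Set against the median gene of each library, which was 0.34 to 0.46 higher on the log2 scale, 929 (12.4%) were higher and 1186 (15.8%) lower by that fold in every library.

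A comparison in a shared depth range kept most directions and few calls. Only D3, D6 and D9 had at least 10 cells under 10% within the depth range of their high-MT cells, and those were 11, 16 and 10 cells. High-MT cells were still the shallower class there, since only the range was shared. Their median was 11202 (D3), 6511 (D6) and 4648 (D9) non-mitochondrial UMIs, against 13355, 8900.5 and 6579 in the cells under 10% within the range. In that comparison 224 of 5729 genes (3.91%) were higher and 564 (9.84%) lower. Of the 4299 genes called over all cells and tested there, 3780 (87.9%) had the same direction, 773 were called in that direction and 0 in the opposite one. The cells within the range were also in the comparison over all cells, so agreement in direction was in part built in. In the untreated libraries, with 4 and 3 such cells, depth and class cannot be told apart.

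Of the gene lists, that of nuclear long noncoding RNAs had the highest median, and where the RNA lay in these cells was not measured. MALAT1, a long noncoding RNA of nuclear speckles (chromosome 11, 65497640 to 65508073, plus strand, GRCh38), was at 57129, 56566, 46412, 54842 and 64324 CPM in high-MT cells of untreated D0 replicates 1 and 2, D3, D6 and D9. In cells under 10% it was at 5263, 6629, 6719, 8880.2 and 9956 CPM. The classes were far apart in every library, and the log2 fold change was 2.35 ± 0.09 (SE; edgeR adjusted p = 1.3e-21). NEAT1, the scaffold of paraspeckles, was at 1132 to 2100 CPM in high-MT cells, against 224 to 522 CPM in cells under 10% (1.75 ± 0.11 on the log2 scale, edgeR adjusted p = 1.4e-16). Of 10 nuclear long noncoding RNAs tested, 8 were higher and 1 was lower, with a median of 1.33, and in the shared depth range 4 of 7 were higher. PVT1, a noncoding RNA beside MYC, rose by 1.61 on the log2 scale, MIR22HG (0.45) was not called, and HOTAIRM1, from the HOXA cluster, was lower (-0.77), though 0 members were lower and 9 higher with library sizes alone. MIR22HG and HOTAIRM1 were named after their values were seen. A larger list of antisense and unnamed noncoding genes was mixed. Of its 288 tested members 96 were higher and 78 lower (median 0.09), and with library sizes alone 143 were higher and 32 lower.

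Messenger RNAs of splicing regulators and of genes known to keep introns in the nucleus were mostly higher as well. Of 24 tested, 19 were higher and 1 lower, with a median of 0.56 on the log2 scale, and 23 were higher with library sizes alone. OGT, which encodes the enzyme that adds GlcNAc to nuclear and cytoplasmic proteins, was at 126, 116, 104, 106 and 169 CPM in high-MT cells and at 22.3, 21.4, 30.1, 22.5 and 33.7 CPM in cells under 10%. The lowest high-MT library lay above the highest library of the cells under 10% (log2 fold change 1.66 ± 0.13, edgeR adjusted p = 7.9e-14). CCNL2, a cyclin of splicing kinases, RSRP1, an arginine and serine rich protein, and NKTR, a cyclophilin with such a domain, rose by 1.51, 1.41 and 1.36. SRRM1, a splicing coactivator named after its value was seen, was the member called lower (-0.36), and with library sizes alone 0 were lower. In the shared depth range 4 of 22 members were called higher and 0 lower, with a median of 0.62.

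**Figure D2:**
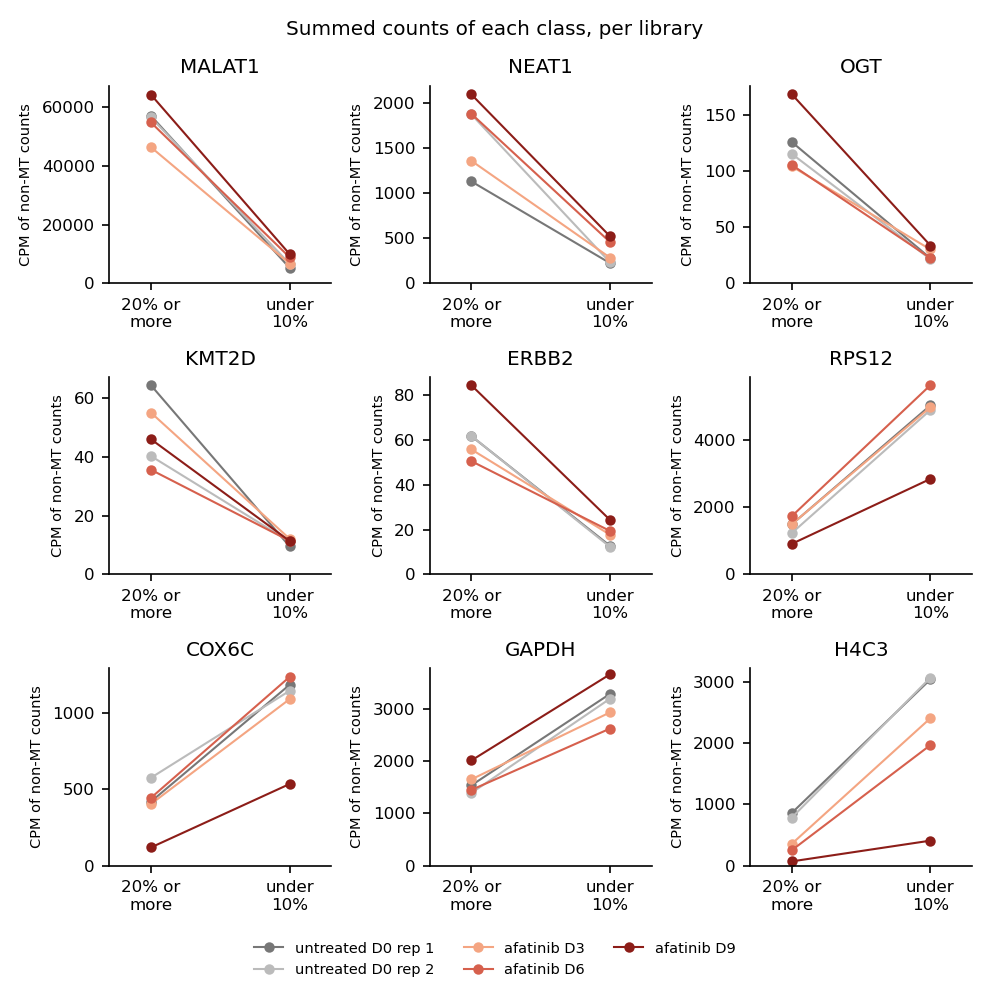
CPM of non-mitochondrial counts (y axes, linear from 0) of 9 genes in the summed high-MT cells (left, 20% or more) and the summed cells under 10% (right), 1 line a library. MALAT1, NEAT1, OGT, KMT2D and ERBB2 slope down to the right in all 5 libraries, and RPS12, COX6C, GAPDH and H4C3 slope up.

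Genes of a list of short-lived regulators and of long regulatory and scaffold genes all rose. The list had a median transcript of 11075 bases, and of all genes in the longest quintile of transcripts, from 5741 bases up, 63.5% were higher. All 27 tested members of this list were higher and 0 lower (median 0.87), and all 27 also with library sizes alone. Like the other lists, it was chosen with earlier results of these data known, so this count is not independent support. In the shared depth range 5 of 25 were called higher and 0 lower, with a median of 0.78. KMT2D, a histone H3 lysine 4 methyltransferase, was at 64.4, 40.3, 55.1, 35.6 and 46.0 CPM in high-MT cells, against 9.55, 11.2, 12.2, 11.5 and 11.4 CPM in cells under 10%. The classes did not overlap (log2 fold change 1.49 ± 0.18, edgeR adjusted p = 3.5e-09). MACF1, which links actin and microtubules, was at 393 to 531 CPM in high-MT cells and at 116 to 153 CPM in cells under 10%. ARID1B, a subunit of the SWI/SNF chromatin remodeller, and DST, a cytoskeletal linker, rose by 1.23 and 1.19 on the log2 scale.

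Receptors, integrins and matrix genes, whose messages are translated on the endoplasmic reticulum, were mostly enriched. Of 37 receptor and adhesion genes 26 were higher and 5 lower (median 0.61), and with library sizes alone 32 were higher and 1 lower. ERBB2, the receptor kinase that afatinib inhibits beside EGFR (chromosome 17, 39687914 to 39730426, plus strand), was at 61.7, 61.8, 55.8, 50.5 and 84.4 CPM in high-MT cells and at 12.8, 12.3, 17.7, 19.4 and 24.3 CPM in cells under 10%. Every high-MT value lay above every value of the cells under 10% (log2 fold change 1.24 ± 0.16, edgeR adjusted p = 1.8e-08). IGF1R, the receptor for insulin-like growth factor, and LRP6, a Wnt co-receptor, rose by 1.16 and 1.13. The 5 members that fell were CD59 (-0.90), SDC4 (-0.70), CD55 (-0.68), EPCAM (-0.60) and CD47 (-0.52), named after their values were seen. CD59, CD55 and CD47 encode surface proteins that restrain complement or phagocytosis, SDC4 a syndecan and EPCAM an epithelial adhesion molecule. In the shared depth range 2 of 32 members were called higher and 0 lower, where 3.91% of all genes were higher and 9.84% lower. Such a count does not set the list apart there. Its median in that range was 0.42, against 0.05 over all genes.

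Of 11 matrix and basement membrane genes tested, 10 were higher and 0 lower, with a median of 1.11, and in the shared depth range 2 of 7 were higher. AGRN, a heparan sulfate proteoglycan, was at 298, 309, 235, 266 and 268 CPM in high-MT cells and at 51.8, 54.7, 70.4, 80.8 and 66.5 CPM in cells under 10% (log2 fold change 1.49 ± 0.12, edgeR adjusted p = 2.6e-13). LAMA5, a laminin chain, rose by 1.39.

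Transcripts of cytosolic ribosomal proteins were depleted as a block. All 84 were lower and 0 higher, with a median of -1.89 on the log2 scale. With library sizes alone 82 were lower and 1 higher, and in the shared depth range 76 of 84 were lower with a median of -1.38. Together they took 9.17%, 8.12%, 9.00%, 9.59% and 6.69% of non-mitochondrial counts in high-MT cells of untreated D0 replicates 1 and 2, D3, D6 and D9. In cells under 10% they took 21.02%, 20.5%, 19.9%, 21.4% and 15.9%. In every library the share in high-MT cells was below that in any library of the cells under 10%. RPS12, a protein of the small subunit (chromosome 6, 132814569 to 132817564, plus strand), was at 1486, 1228, 1489, 1728 and 907 CPM in high-MT cells, against 5017, 4879, 4962, 5617 and 2834 CPM in cells under 10%. Its log2 fold change was -2.34 ± 0.10 (edgeR adjusted p = 3.0e-21). Reads shared with processed pseudogenes leave the values of single members uncertain.

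Of 26 translation factors 21 were lower and 1 higher, and in the shared depth range 10 of 26 were lower and 1 higher. TPT1, a growth-related protein with a message of the same 5′ terminal type as ribosomal proteins, was at 1079, 1074, 1319, 1522 and 2108 CPM in high-MT cells, against 2980.0, 2869, 4169, 4442 and 6072 CPM in cells under 10% (log2 fold change -2.11 ± 0.09, edgeR adjusted p = 9.9e-21). BTF3 and NACA, the nascent polypeptide-associated complex, and EEF1B2, an exchange factor of elongation, fell by 1.71, 1.71 and 1.70. The member that rose was EIF4G1 (0.76), the large scaffold of cap-dependent initiation, named after its value was seen.

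Nuclear-encoded parts of the respiratory chain and the ATP synthase were depleted. Of 37 nuclear complex I subunits 36 were lower and 0 higher (median -1.45), of 23 subunits of complexes II to IV 22 were lower and 0 higher (-1.56), and of 19 ATP synthase subunits 18 were lower and 0 higher (-1.63). With library sizes alone 32, 19 and 16 stayed lower, and in the shared depth range 22 of 37, 15 of 22 and 15 of 18 were lower. COX6C, a small subunit of complex IV, was at 419, 575, 403, 443 and 119 CPM in high-MT cells and at 1183, 1144, 1089, 1235 and 534 CPM in cells under 10%. In each library the high-MT value was the lower one (log2 fold change -2.06 ± 0.11, edgeR adjusted p = 2.9e-18). ATP5F1E, the epsilon subunit of the ATP synthase, was at 520.5, 620.5, 355, 434 and 111 CPM in high-MT cells, against 1555, 1493, 1177, 1182 and 320.2 CPM in cells under 10% (log2 fold change -2.10 ± 0.10, edgeR adjusted p = 2.0e-19). NDUFA12, an accessory subunit of complex I, fell by 1.89, and UQCRB, which binds ubiquinone in complex III, by 1.99.

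The members of these complexes that were not called were NDUFS1 (0.26), SDHA (0.23) and ATP5MGL (-0.11), named after their values were seen. NDUFS1 is the largest subunit of complex I and SDHA the flavoprotein of complex II.

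Other nuclear genes of the organelle differed by list. Of 78 mitochondrial ribosomal proteins 76 were lower and 0 higher (median -1.31), and of 18 genes of protein import 16 were lower and 0 higher (-1.32). In the shared depth range 21 of 65 and 6 of 15 were lower. MRPL21, of the large mitochondrial ribosomal subunit, was at 76.7 to 105 CPM in high-MT cells, against 202 to 258 CPM in cells under 10%. TOMM22, the receptor of the outer membrane translocase, was at 75.1, 69.8, 62.3, 66.4 and 47.9 CPM in high-MT cells and at 186, 178, 157, 157 and 224 CPM in cells under 10% (log2 fold change -2.01 ± 0.13, edgeR adjusted p = 9.3e-16). SLIRP, which binds mitochondrial messages, fell by 2.07, and SSBP1, the single-stranded DNA binding protein of the organelle, by 1.48.

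POLG, the DNA polymerase of the organelle, POLRMT, its RNA polymerase, and LRPPRC, the partner of SLIRP, rose by 0.79, 0.68 and 0.33 and were named after their values were seen. Over all 23 genes of mitochondrial DNA maintenance and RNA 3 were higher and 7 lower with TMM factors, while 12 were higher and 5 lower with library sizes alone. SPG7, a subunit of the inner membrane m-AAA protease, was at 295, 312, 218, 205 and 320.2 CPM in high-MT cells, against 62.3, 56.6, 50.1, 55.7 and 73.7 CPM in cells under 10% (log2 fold change 1.58 ± 0.11, edgeR adjusted p = 1.1e-14). HSPE1, the small partner of the matrix chaperonin HSPD1, fell by 1.32.

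**Figure D3:**
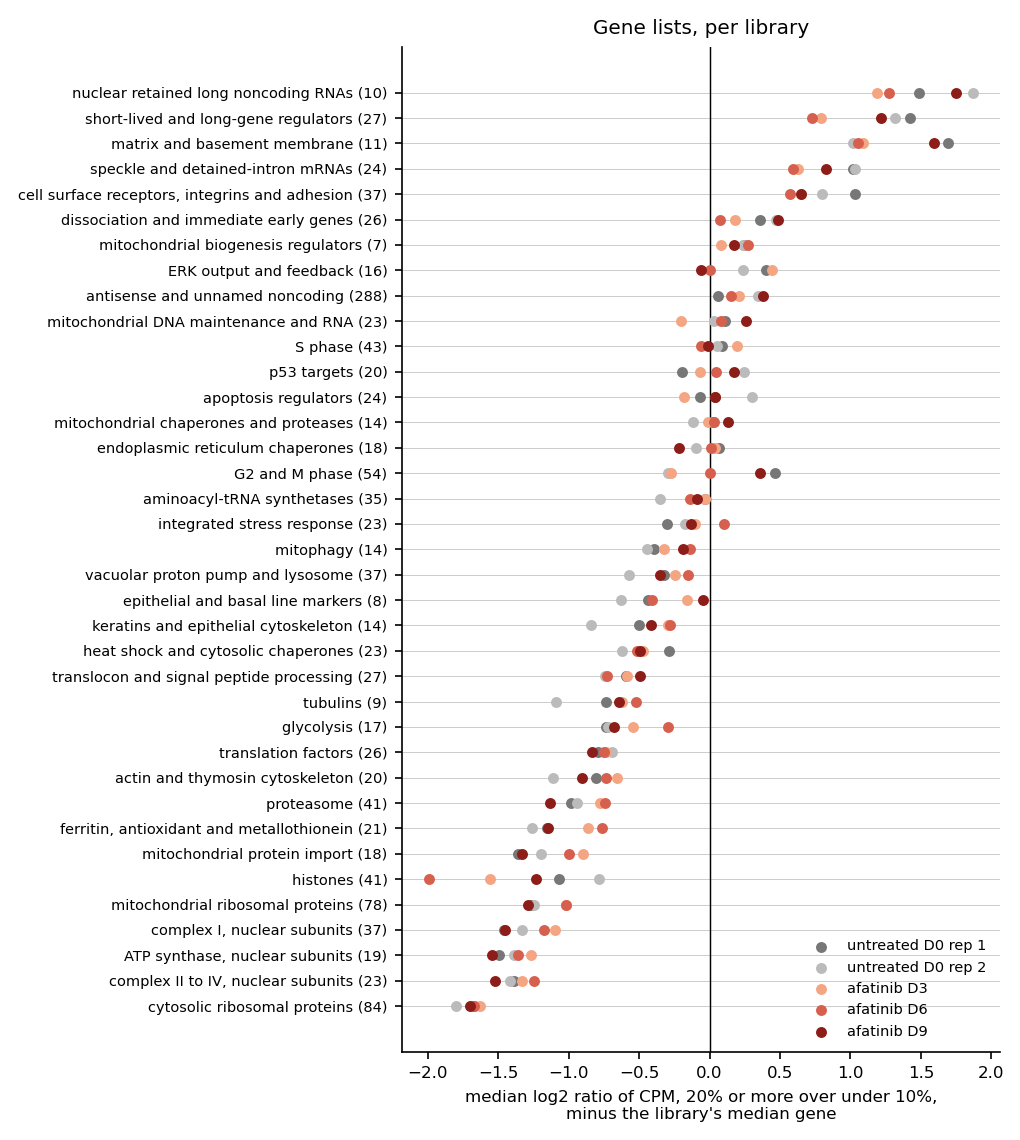
Median log2 ratio of CPM, high-MT cells over cells under 10%, of each list's members, minus the median of all genes of 20 CPM or more in the same library (x axis), 1 point a library and the number of genes in brackets. Cytosolic ribosomal proteins lie between -1.80 and -1.63 and nuclear long noncoding RNAs between 1.19 and 1.87 in all 5 libraries, and the S phase list stays within 0.20 of 0.

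Abundant short messages of the cytosol were depleted too. Of 17 glycolysis genes 11 were lower and 0 higher (median -0.73), though with library sizes alone 8 were lower and 4 higher and in the shared depth range 3 of 13 were lower. GAPDH, a central glycolytic enzyme, was at 1537, 1391, 1652, 1449 and 2014 CPM in high-MT cells and at 3288, 3196, 2934, 2624 and 3663 CPM in cells under 10%. The classes did not overlap (log2 fold change -1.55 ± 0.10, edgeR adjusted p = 2.3e-16). LDHB, LDHA and TPI1, enzymes of lactate and triose metabolism, fell by 1.27, 1.23 and 1.21. Of 21 ferritin, antioxidant and metallothionein genes 19 were lower and 0 higher (-1.28), and 8 of 15 were lower in the shared depth range. FTH1, the ferritin heavy chain, was at 2106 to 2642 CPM in high-MT cells, against 5866 to 6955 CPM in cells under 10%.

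In the actin and thymosin list 16 of 20 were lower and 2 higher, and in the shared depth range 8 of 20 were lower and 1 higher. TMSB4X, which binds monomeric actin, was at 1028 to 1319 CPM in high-MT cells, against 2588 to 3115 CPM in cells under 10% (log2 fold change -1.88 ± 0.10, edgeR adjusted p = 3.5e-19). The 2 that rose were MYH9 (0.55), a nonmuscle myosin heavy chain, and ACTN4 (0.33), an actin crosslinker, named after their values were seen. All 9 tubulins were lower (median -0.83), with 5 of 9 lower and 0 higher with library sizes alone, but 0 of 7 were called in the shared depth range (median -0.027). Of 23 heat shock and cytosolic chaperone genes 20 were lower and 0 higher, against 6 lower and 3 higher with library sizes alone and 1 of 20 lower in the shared depth range.

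Of 41 proteasome genes 38 were lower and 1 higher (median -1.10), and 13 of 38 were lower in the shared depth range. PSMB3, a subunit of the core particle, fell by 1.95, and the exception was PSME4 (0.86), the large activator PA200, named after its value was seen. Of 27 genes of the translocon and signal peptide processing 23 were lower and 2 higher, and 9 of 27 were lower in the shared depth range. SEC61G, the small gamma subunit of the translocon, fell by 2.14 and OST4, a small subunit of the oligosaccharyltransferase, by 2.30. The 2 that rose were SEC61A1 (0.33), the channel subunit, and SRPRA (0.27), the receptor of the signal recognition particle, and with library sizes alone 13 were lower and 6 higher.

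A histone gene had the largest fall among named genes of 20 CPM or more. Of 41 histone genes tested 36 were lower and 0 higher (median -1.51), and in the shared depth range 4 of 11 were lower (-0.74). H4C3, a histone H4 gene (chromosome 6, 26103933 to 26104337, plus strand), was at 861, 784, 356, 252 and 69.0 CPM in high-MT cells of untreated D0 replicates 1 and 2, D3, D6 and D9. In cells under 10% it was at 3046, 3074, 2410.4 and 1971 CPM in the libraries up to D6 and 408 CPM at D9. The high-MT value was lower within each library, and both classes were lowest at D9 (log2 fold change -3.01 ± 0.13, edgeR adjusted p = 3.0e-21). Histone genes are near copies of each other, so reads could be split between them.

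Among the 12 largest falls, beside histone and ribosomal protein genes, were S100A9 (-2.49), a calcium-binding protein, and SMIM30 (-2.48), a small membrane protein. S100A9 was at 14.8 to 45.7 CPM in high-MT cells and at 62.8 to 90.3 CPM in cells under 10%, which did not overlap. It did not grade evenly with mitochondrial share. In the cells from 10% to under 20% it was above both classes in D0 replicates 1 and 2 and at D9 (188, 132 and 104 CPM). At D3 and D6 it lay between them (43.3 and 54.0 CPM).

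The 12 largest rises held noncoding RNAs and few well-known messages. SYNC, which encodes the intermediate filament protein syncoilin, was at 131, 102, 115, 83.2 and 42.2 CPM in high-MT cells, against 12.9, 13.0, 12.9, 9.03 and 7.63 CPM in cells under 10%. All high-MT values lay above all values of the cells under 10% (log2 fold change 2.48 ± 0.15, edgeR adjusted p = 9.9e-17). LINC00342 and LINC02969, long intergenic noncoding RNAs, rose by 2.502 and 2.41. GOLGA8A rose by 3.07, but it has near-identical copies in its family that could share its reads. The largest rise was that of the identifier ENSG00000269028, which neither the files nor the reference tables pair with a symbol. It was at 896, 1090, 1090, 767 and 548 CPM in high-MT cells and at 60.6, 64.6, 101, 92.7 and 36.8 CPM in cells under 10%. Its mean UMIs per cell were 2.41 to 3.55 times those of cells under 10%, at the upper end of the MT- genes. The reference gave it no position or gene type, and whether its reads came from nuclear or mitochondrial RNA was not tested.

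Several lists had no common direction, and in most the members that rose were longer than those that fell. Of 54 G2 and M phase genes 10 were higher and 22 lower, while with library sizes alone 31 were higher and 6 lower. The 10 had a median transcript of 6454 bases and the 22 one of 1804.5 bases. MKI67 (0.96) and CENPF (0.78), markers of dividing cells with long messages and named after their values were seen, rose, and CKS2 (-1.81) and CKS1B (-1.45), small partners of cyclin-dependent kinases, fell. Of 43 S phase genes 11 were higher and 15 lower, against 25 higher and 4 lower with library sizes alone. Of 24 apoptosis regulators 6 were higher (median 5989.5 bases) and 9 lower (2177 bases). BIK (-2.18) and BAD (-1.26), which promote apoptosis, and CYCS (-1.40), cytochrome c, fell, and BCL2 (0.92), which opposes it and was named after its value was seen, rose.

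Of 26 dissociation and immediate early genes 6 were higher and 5 lower, against 19 higher and 0 lower with library sizes alone. FOSB, a partner of JUN, rose by 0.81 and NR4A1, an orphan nuclear receptor, by 0.76, and GADD45B, a stress sensor, fell by 0.70. Of 23 genes of the integrated stress response 6 were higher and 13 lower, and with library sizes alone 10 were higher and 3 lower. ASNS, asparagine synthetase, rose by 1.41, and NUPR1, a stress-induced chromatin protein, and CHAC1, which degrades glutathione, fell by 1.38 and 1.19. Of 20 p53 targets 5 were higher and 8 lower, and of 16 genes of ERK output and feedback, downstream of EGFR, 2 were higher and 3 lower. With library sizes alone 8 p53 targets were higher and 2 lower, and 12 ERK genes were higher and 0 lower.

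Markers of the line were present in both classes. Of 8 on the list, the basal keratins KRT5 and KRT17 among them, 2 were higher, 5 lower and 1 not called. With library sizes alone 3 were higher and 2 lower, and in the shared depth range 0 were called. KRT8, KRT18 and KRT19, keratins of simple epithelia, were at 755 to 1016, 588 to 892 and 1862 to 2987 CPM in high-MT cells, against 755 to 1021, 818 to 1109 and 2175 to 3279 CPM in cells under 10%. Relative to the bulk of genes all 3 were lower (-0.63, -0.99 and -0.89), but KRT8 was not called with library sizes alone (-0.05). CDH1, E-cadherin, rose by 0.75 but was at -0.14 in the shared depth range, and EGFR, named after its value was seen, rose by 0.61. Of 13 markers of blood, stromal and endothelial cells 1 was in the files, COL1A1, a fibrillar collagen chain, at 2.68 to 21.06 CPM in high-MT cells and 2.18 to 4.05 CPM in cells under 10% (log2 fold change 1.15 ± 0.30, edgeR adjusted p = 0.0011). It was not called without D6 (0.77).

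Over all genes, the class difference graded with length. Lengths came from the canonical transcripts of GENCODE, which 11696 of the 11718 genes matched. Genes in the shortest quintile, from 209 to 1694 bases, had a median log2 fold change of -0.99, with 8.37% called higher and 76.3% lower. The next quintiles had medians of -0.38, -0.02 and 0.26. The longest quintile, from 5741 bases up, had a median of 0.58, with 63.5% higher and 7.87% lower. Spearman's rho across genes was 0.59, and it was 0.56 over the 5724 genes of the comparison in the shared depth range. It is a description, since genes are not independent replicates. By protein length over 10913 genes, medians ran from -1.003 for proteins of 25 to 247 residues to 0.61 for those of 838 residues and more (rho 0.66). Each library showed the same order of quintiles.

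**Figure D4:**
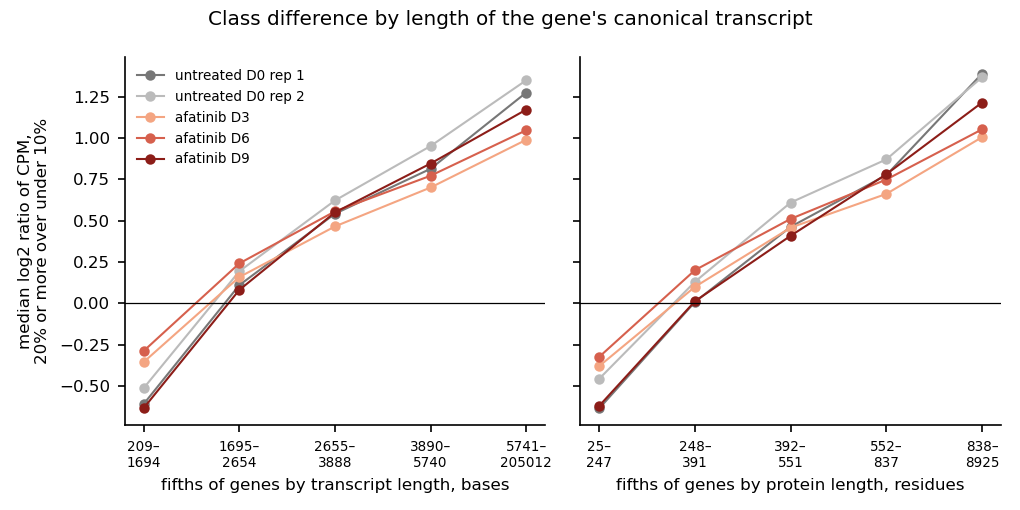
Median log2 ratio of CPM, high-MT cells over cells under 10% (y axis), in quintiles of genes by the length of the canonical transcript in bases (left) and of its protein in residues (right), 1 line a library. All 5 lines climb at every step, in the left panel between -0.63 and -0.29 for the shortest quintile and between 0.99 and 1.35 for the longest.

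Several lists differed from the median of their length quintiles. The quintiles were broad, so differences of length within them remained, and their part was not tested. The shortest ran from 209 to 1694 bases, where ribosomal proteins had a median of 827 bases and complex I subunits of 696. The longest began at 5741 bases, and the regulator list had a median of 11075. Against the median of the length quintile that each member belongs to, the median member of the cytosolic ribosomal proteins was still 0.97 lower on the log2 scale, and the nuclear subunits of complex I, of complexes II to IV and of the ATP synthase were 0.64, 0.62 and 0.71 lower. Nuclear long noncoding RNAs were 1.67 higher, the splicing list 0.49 higher, matrix genes 0.53 higher and receptors and adhesion genes 0.32 higher. The list of short-lived and long regulators was 0.29 higher. The G2 and M phase list was 0.03 lower and the S phase list 0.05 lower than their quintiles. The 1978 genes at least 1.5-fold higher in every library had a median transcript of 5853 bases, against 3249 bases for all genes of 20 CPM or more, and the 488 that were lower had one of 945.5 bases.

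Noncoding genes and membrane protein genes leaned to the higher side. Of 769 long noncoding RNA genes 40.1% were higher and 26.1% lower (median 0.20), and of 10913 protein-coding genes 28.0% were higher and 35.4% lower (-0.07). Proteins with a stretch of 19 residues of mean hydropathy of at least 1.6 on the Kyte-Doolittle scale, as in a signal peptide or a membrane span, had a median of 0.08 over 3365 genes, against -0.13 over the 7548 genes without one. Within each quintile of protein length the genes with such a stretch had the higher median, at -0.86 against -1.04 in the shortest quintile and at 0.71 against 0.55 in the longest. The difference within a quintile was 0.09 to 0.19 on the log2 scale, small beside that between quintiles.

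Counted per cell, almost no transcript outside the MT- genes was as frequent in high-MT cells. Of the 7506 genes of 20 CPM or more, 7120 had fewer mean UMIs per high-MT cell than per cell under 10% in every library, and 13 had as many or more in every library. MALAT1 was one of the 13, at 1.77, 1.41, 1.88, 1.88 and 1.54 times the level of cells under 10%, within the range of the MT- genes. SYNC, LINC00342, LINC02969 and SMCR5, an RNA gene of the Smith-Magenis region, were others. So were ENSG00000269028 and ENSG00000255823, which have no position or gene type in the reference, so a nuclear origin cannot be stated for them. NEAT1 was at 0.825, 1.34, 1.2996, 1.26 and 0.958 times, AGRN at 0.908 to 1.01 times and ERBB2 at 0.787 to 0.855 times. RPS12 was at 0.0417 to 0.0939 times, GAPDH at 0.0721 to 0.169 times and H4C3 at 0.0390 to 0.0461 times. The fewer UMIs per cell may stand for fewer molecules or for a lower capture, and these cannot be told apart here.

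**Figure D5:**
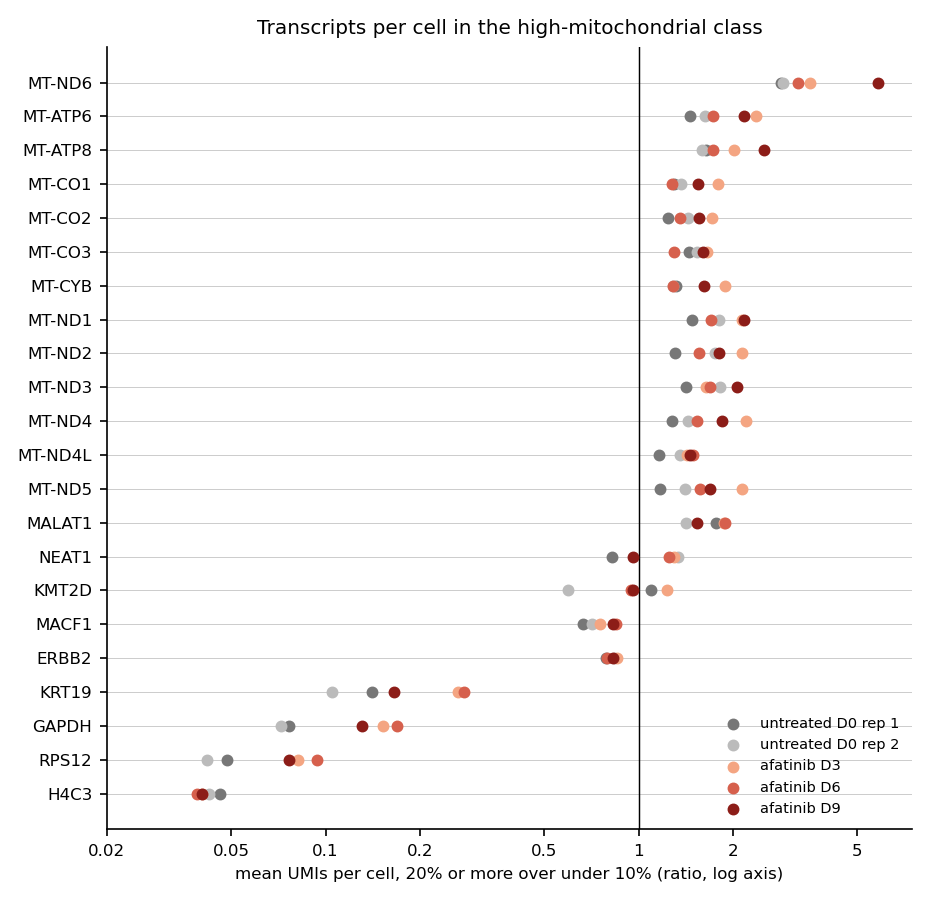
Ratio of mean UMIs per cell, high-MT cells over cells under 10% (x axis, log scale), for the 13 MT- genes and 9 nuclear genes, 1 point a library, with a line at 1. The MT- genes and MALAT1 lie right of 1 in all 5 libraries, MT-ND6 farthest at 2.86 to 5.82, and RPS12 and H4C3 lie under 0.1.

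In the cells between the classes, 1547 of the 5434 called genes of 20 CPM or more lay between both classes in all 5 libraries. Ribosomal protein and MALAT1 transcripts graded evenly with mitochondrial share at D6 but not in every library. At D6, the library with the most high-MT cells, ribosomal protein transcripts took 22.3% of non-mitochondrial counts in the 11 cells under 5%, then 21.4%, 19.5% and 15.1% in the bins up to 20%, and 10.1%, 8.57% and 8.28% in cells from 20%, 30% and 40% up. MALAT1 took 0.460%, 0.910%, 1.75%, 3.10%, 5.14%, 6.04% and 7.51% of non-mitochondrial counts in the same bins, of which the last held 19 cells. Elsewhere MALAT1 was lower from 40% up than from 30% to under 40%, at 6.01% against 7.26% in D0 replicate 1 (14 and 18 cells) and at 7.001% against 7.40% at D9. The ribosomal share was slightly higher from 5% to under 10% than under 5% in D0 replicates 1 and 2 and at D3. Median non-mitochondrial UMIs in the D6 bins were 17358, 22398, 18365, 11631, 7508, 5642 and 4162.

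The class difference was compared between treated and untreated libraries by an interaction term in the same model. Of 11718 genes 3 (0.0256%) passed an adjusted p under 0.05, and 1032 had an unadjusted p under 0.05. DESeq2 also called 3 genes, of which 0 were the same. The term's standard error had a median of 0.30 on the log2 scale among genes of 20 CPM or more, so differences below 1 and some above it could go uncalled. PSMB3, for example, had an interaction of 1.12 ± 0.25 and was not called (edgeR adjusted p = 0.15). At least 1.5-fold higher in CPM in high-MT cells were 2298 genes (30.6%) in all 3 treated libraries and 2695 (35.9%) in both untreated ones, and 641 (8.54%) and 917 (12.2%) were lower by that fold. Of these, 0 were higher by that fold in all treated libraries and lower in both untreated ones, and 0 the reverse. The treated counts asked for the fold in 3 libraries and the untreated ones in 2, so their sizes are not like for like. The untreated high-MT sums also rested on only 45 and 83 cells.

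The 3 genes with an interaction were ODC1, PLCG2 and VMP1. ODC1, the rate-limiting enzyme of polyamine synthesis, was at 56.3 and 34.9 CPM in untreated high-MT cells, against 103 and 112 CPM in untreated cells under 10%. In the treated libraries it was at 109, 102 and 123 CPM in high-MT cells, against 90.4, 72.04 and 120.1 CPM in cells under 10%. In CPM it was thus lower in high-MT cells of both untreated libraries and higher in those of all 3 treated ones, though at D3 and D9 by less than the median gene (interaction 1.65 ± 0.30 on the log2 scale, edgeR adjusted p = 0.033). PLCG2, a phospholipase C of receptor signalling, was at 212 and 137 CPM in untreated high-MT cells, against 40.02 and 54.1 CPM in untreated cells under 10%. At D3, D6 and D9 it was at 28.6, 12.3 and 9.59 CPM in high-MT cells, against 25.6, 22.2 and 8.29 CPM in cells under 10% (interaction -2.03 ± 0.34, edgeR adjusted p = 0.021). VMP1, a membrane protein of autophagosome formation, was at 150 and 247 CPM in untreated high-MT cells, against 54.0 and 53.3 CPM in untreated cells under 10%. At D3, D6 and D9 it was at 69.5, 41.5 and 72.9 CPM in high-MT cells, against 51.1, 33.7 and 47.4 CPM in cells under 10% (interaction -1.31 ± 0.24, edgeR adjusted p = 0.033). Of the 3, PLCG2 alone was still called when cells were thinned to equal depth. These calls were lost when certain libraries were left out, in part with a difference of about the same size. ODC1 was not called without D0 replicate 2 (1.23), D3 (1.65) or D6 (1.54), PLCG2 not without D0 replicate 1 (-1.41) or D6 (-1.59), and VMP1 not without D0 replicate 2 (-0.97), D3 (-1.32) or D6 (-1.21). Without D0 replicate 1 the interaction was called for 31 genes, and without D9 for 14.

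At equal depth high-MT cells were richer in distinct genes, not poorer. Each cell was thinned at random to 3000 non-mitochondrial UMIs, which left out 20 high-MT cells and 0 cells under 10%. High-MT cells then had a median of 1789, 1842, 1888, 1813 and 1827 genes in untreated D0 replicates 1 and 2, D3, D6 and D9. Cells under 10% had 1581, 1580.5, 1637, 1596.5 and 1686 genes. The difference was 215.6 ± 47.4 genes (SD over 5 libraries), positive in 5 of 5, with p = 0.062 in an exact two-sided sign-flip permutation test, the smallest p that 5 libraries allow. Unthinned cells gave the opposite order, with medians of 2251 to 4296 genes in high-MT cells and 5055 to 6838 in cells under 10%.

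Differences in S phase and in G2 and M phase were uneven across libraries. At that depth S phase was assigned to 40%, 31.9%, 40%, 42.7% and 38.4% of high-MT cells, against 33.5%, 35.1%, 28.2%, 27.7% and 37.2% of cells under 10%. The difference was 6.24 ± 7.47 percentage points (SD), positive in 4 of 5 libraries (exact sign-flip permutation p = 0.19, adjusted p = 0.19). For G2 and M phase it was 8.08 ± 10.6 points, also positive in 4 of 5 (exact sign-flip permutation p = 0.19, adjusted p = 0.19). At 2000 UMIs both differences were positive in 5 of 5 libraries, at 5.00 and 11.6 points (exact sign-flip permutation p = 0.062 each, the smallest possible). Cells with neither score positive were called G1. At 3000 UMIs these were 2.22%, 14.5%, 27.8%, 18.5% and 8.08% of high-MT cells, against 21.9%, 18.7%, 35.3%, 34.6% and 32.2% of cells under 10%. The G1 share was thus lower in every library, which was not tested. In unthinned cells of D0 replicate 2 it was higher, at 15.7% against 14.5%. The genes behind these scores differed in length and in direction between the classes, and the part of that in the scores was not tested.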

How the data were processed

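Single-cell counts of 5 libraries of MDA-MB-468 cells were used. Per the submitters' processing notes and the study's methods, the authors aligned reads with Cell Ranger 6.1.2 to GRCh38 with GENCODE 32, removed putative doublets, cells under 5000 UMIs and cells whose mitochondrial share was outlying, applied ComBat-seq to the D0 captures and left out low genes. The deposited matrix holds expected counts, namely UMI counts after that adjustment. All values were whole, so rounding changed nothing. The other deposited columns hold other content, namely cell names and gene identifiers. The test was chosen for plain UMI counts. D0 replicate 2 may form an adjustment batch of its own, and every class difference was taken within a library. Total counts ran from 14517579 (D3) to 28148379 (D0 replicate 2).

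MT- genes were left out of sums and library sizes. Sums per library and class were tested with edgeR 4.0.16 (quasi-likelihood, TMM, filterByExpr, 4 residual degrees of freedom, biological coefficient of variation 0.116). Standard errors are the log2 fold change over the root of F. The test was tested on simulated data. Alternatives used DESeq2 1.42.0, limma 3.58.1 (voom), other cuts, filters, depths and library subsets. Phases were scored with scanpy 1.11.5. Lengths, positions and proteins came from GENCODE 44 on GRCh38, the build of the files. The authors' cell names gave each cell's library.

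The members and gene lists were chosen with earlier results of these data known. Named genes are the 12 largest rises and 12 largest falls among called genes of 20 CPM or more with 1 direction in every library, up to 4 called members a list, all MT- genes, MALAT1, NEAT1 and up to 5 interaction calls a direction. Of 423 identifiers without a symbol, 12 were given one from the reference tables. Some genes that the rule picks are not reported here.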

Additional observations from a re-analysis of the deposited data

Results flagged for a closer look

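The class difference of 3 genes differed between treated and untreated libraries by the interaction term of edgeR, the only results singled out for a closer look. The interaction on the log2 scale was 1.65 for ODC1, -2.03 for PLCG2 and -1.31 for VMP1. ODC1 was called in 2 of the 5 fits that left out 1 library, PLCG2 in 3 and VMP1 in 2. Median non-mitochondrial UMIs of high-MT cells were 7004 and 3931 in D0 replicates 1 and 2, 11202 at D3, 6511 at D6 and 4648 at D9, and their part in these results was not tested.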

How the results depend on the processing

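Without TMM factors, a setting chosen after the data were seen, 6235 genes were higher and 1878 lower, TFEB, HSPD1 and ETV4 changed sign (0.11, 0.021 and 0.040), and 150 of the 164 named genes kept their call. In the shared depth range, where fewer cells and genes were tested, 224 genes were higher and 564 lower, and HSPD1 (0.021), ERP44 (0.077), TUBA1C (0.031) and CDH1 (-0.14) changed sign without being called. Thinning to 3000 UMIs gave 2199 higher and 2544 lower over 8082 genes tested. The untreated libraries alone, also chosen after the data were seen, gave 1846 and 2353 with 1 residual degree of freedom, and NR4A2 turned to -0.31 there. VMP1 was at -0.031 in the treated libraries alone. The fit with no replicate block, that is without the library term, gave 2871 higher and 3512 lower genes. Leaving out 1 library at a time gave 3032 to 3601 higher and 3329 to 3946 lower genes. Interaction calls ran from 1 to 31 when 1 library was left out, with 31 without untreated D0 replicate 1, 14 without D9 and 1 without D6, and thinning gave 1. The excess of genes detected was 149.3 at 2000 UMIs, and unthinned cells differed by -2784.6. The cause of these changes was not tested. DESeq2, voom, no filter, mitochondrial genes kept in library sizes, cuts at 15% and 25% and a low class of 5% to under 10% kept both counts within 1.5 times and no named gene changed sign in them.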

Other observations

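MT-ND3, a small subunit of complex I, differed between libraries in both classes. It took 9.97% and 11.4% of mitochondrial counts in high-MT cells of untreated D0 replicates 1 and 2, 9.15% at D3, 8.75% at D6 and 1.43% at D9. In cells under 10% it took 9.41%, 9.32%, 10.3%, 7.31% and 1.17%. MT-ND4L, another small subunit, was also lowest at D9, at 0.108% in high-MT cells and 0.125% in cells under 10%, against 0.300% to 0.422% and 0.361% to 0.465% in the other libraries. A number of the nuclear genes named above, such as RPS29 of the small ribosomal subunit, were also lowest at D9, at 167 CPM in high-MT cells and 396 CPM in cells under 10%, against 514 to 1003 CPM and 1666 to 3269 CPM in the other libraries.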
